A study of Mus musculus with 11 samples.

Results

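The AFF family was examined as the 4 genes Aff1, Aff2, Aff3 and Aff4 among 48709 genes listed in the count tables, and all 4 were among the 17365 genes with enough counts to be tested. They were selected by name through their Ensembl identifiers, and the rule used no measured value, although earlier results of these data were known when the family was chosen. The data are RNA sequencing of primary hippocampal neurons, that is, neurons isolated from the hippocampi of E17 embryos of CD1 mice and grown in culture. Lipid nanoparticles, which are lipid shells that carry RNA into cells, delivered either a mimic of the microRNA miR-181a-5p (5 samples) or a negative control oligonucleotide (6 samples). Cells were treated on day 10 in vitro for 48 hours and collected on day 12, and per the study's methods both groups also received ApoE4. No genetic change was made in either group. The methods describe hippocampi of several embryos pooled before plating, and nothing states that the samples of a group came from separate pools, so p-values measure the spread between these samples, which may be technical.

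AFF proteins are large scaffold proteins of transcription elongation. Aff1 and Aff4 hold together the super elongation complex, in which the kinase P-TEFb, an ELL elongation factor and the YEATS domain proteins ENL or AF9 act to release paused RNA polymerase II. Aff2, also called FMR2, is the gene silenced in FRAXE intellectual disability, and Aff3, also called LAF4, forms a related complex and binds at imprinted loci. In neurons, elongation control is known for the rapid induction of immediate early genes.

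The oligonucleotides and their matches in the AFF transcripts are shown because the comparison rests on which of these messages the mimic could pair with. A microRNA pairs mainly through its seed, bases 2 to 8 from its 5′ end, given here in capitals. The mimic strand was identical to mature mmu-miR-181a-5p of RefSeq, which arises from Mir181a-1 (GRCm38 chromosome 1, 137966468 to 137966490, + strand) and Mir181a-2 (chromosome 2, 38852741 to 38852763, + strand).
mimic: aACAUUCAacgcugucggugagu
negative control: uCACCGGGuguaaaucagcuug
The match of the mimic seed is TGAATGT, which becomes an 8-base match when an A follows it (TGAATGTA). The shorter matches are GAATGTA and GAATGT, both of which overlap it, and the match of the control oligonucleotide is CCCGGTG. Matches were searched on the transcript strand in GENCODE M21 transcripts (build GRCm38).

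In the annotated 3′ untranslated regions (3′ UTRs), TGAATGT was found once in Aff1 and once in Aff4 and not in Aff2 or Aff3, and TGAATGTA was found in none of the 4. Of 14489 tested genes with an annotated 3′ UTR, 18.5% held TGAATGT and 6% held TGAATGTA. The longest annotated 3′ UTR had 4499 bases in Aff1, 206 in Aff2, 2123 in Aff3 and 6315 in Aff4, against a median of 1201 over tested genes, so the window searched in Aff2 was short. Aff4 held in addition 1 match of GAATGTA. The 6-base GAATGT was found 3 times in the 3′ UTR of Aff1 and 3 times in that of Aff4. These counts include those inside the longer matches, and 36.6% of tested 3′ UTRs held GAATGT. The 3′ UTRs of Aff2 and Aff3 held none. The coding sequence of Aff4 held 2, where 34% of tested genes held GAATGT. Sites are written 5′ to 3′ on the + strand with the match in capitals.
Aff1 3′ UTR, chr5:103854702-103854708: taatttttttcTGAATGTgatcatgcttt
Aff4 3′ UTR, chr11:53416173-53416179: tttcaaaactgTGAATGTgtgttagtaac
Aff4 3′ UTR, chr11:53421685-53421691: gaaaaaaaaaaGAATGTAcactattattt
Aff2 coding exon, chrX:69853131-69853137: ttgtccttcacTGAATGTggcaatgccat
Aff1 3′ UTR, control oligonucleotide match, chr5:103854977-103854983: gcagccaggctCCCGGTGaagatgcgcag
The Aff2 match lay in the coding sequence, where 13% of 14556 tested genes held TGAATGT. The 3′ UTR of Aff1 was the only one of the 4 with a match of the control oligonucleotide, which 2.87% of tested 3′ UTRs held. CCCGGTG also lay in the coding sequence of Aff1, where 8.93% of tested genes held it. Aff2 held it outside its coding sequence and 3′ UTR. Of the 4 genes, Aff1 was on the list of predicted miR-181a-5p targets that the study used, and Aff2, Aff3 and Aff4 were not. Aff2 was on its list for miR-146a-5p, a microRNA that was not added to these cells.

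**Figure D1:**
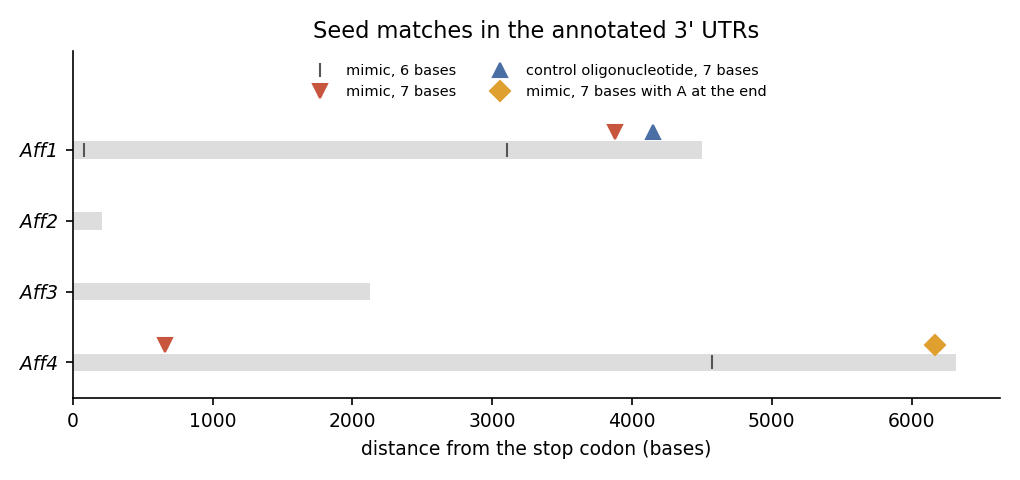
Position of seed matches in the 3′ UTR of each AFF gene (longest annotated), with the distance from the stop codon in bases on the x axis and 1 bar per gene drawn to scale. The 7-base mimic match lies at base 3879 of 4499 in Aff1 and at base 658 of 6315 in Aff4, while the bars of Aff2 and Aff3 carry no mark. The 6-base matches that lie inside a longer match are not drawn again.

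Positions are on GRCm38. Aff1 (ENSMUSG00000029313) lies on chromosome 5 from 103692374 to 103855322 (+ strand) and Aff2 (ENSMUSG00000031189) on chromosome X from 69360294 to 69868037 (+ strand). Aff3 (ENSMUSG00000037138) lies on chromosome 1 from 38177326 to 38664955 (− strand) and Aff4 (ENSMUSG00000049470) on chromosome 11 from 53350833 to 53421830 (+ strand). No 50-base stretch, the read length, was shared between any of the 4 genes. Stretches also present in transcripts of other genes made up 0.206% of those of Aff2 and 0.377% of those of Aff4, and none of Aff1 or Aff3. Gm14705, an antisense gene with 0 to 6 counts per sample, shares 48 exonic bases with Aff2 (0.66% of its exon length). The strand setting of the counting was not stated, so reads in these bases are uncertain.

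The 11 samples had between 17287168 and 48091231 counts, and control replicate 1 was the deepest. Neuron markers were abundant, with a summed level over 12 genes of 8856 to 9169 CPM in control and 8515 to 8811 CPM in mimic samples. CPM are read counts relative to library size, with library sizes scaled by the TMM factors of edgeR. The cultures also held other cells. Astrocyte markers summed to 4891 to 5328 CPM (control) and 4488 to 4800 CPM (mimic) over 8 genes, and oligodendrocyte lineage markers to 315 to 381 and 288 to 331 CPM over 8 genes. Microglia markers summed to 16.4 to 17.3 and 15.5 to 16.9 CPM over 9 genes, fibroblast and vascular markers to 294 to 434 and 438 to 581 CPM over 10 of 11 genes, and dividing cell markers to 82.3 to 90.4 and 97.5 to 106 CPM over 10 genes. Markers called lower were 2 of the neuron list, 1 of the astrocyte list and 1 of the fibroblast and vascular list, and markers called higher were 1 neuron, 1 fibroblast and vascular and 3 dividing cell genes (edgeR adjusted p under 0.05). Over all tested genes 1.77% were called lower and 1.08% higher. No marker was at 0 in all samples, and Cldn5 (endothelium) had at most 1 count. The part of these markers in the AFF values was not tested. In bulk samples, fewer cells of a type and less RNA per cell cannot be told apart.

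Levels of the 4 genes were compared per length, as CPM per kilobase of merged annotated exons. Aff4 was the most abundant with 31.5 ± 0.612 CPM per kb in the control group and 30.2 ± 0.673 in the mimic group (mean ± SD, n = 6 and n = 5, here and for all values given with ±). Aff3 had 14.6 ± 0.354 and 14.4 ± 0.516 CPM per kb, Aff2 3.14 ± 0.256 and 3.39 ± 0.117, and Aff1 2.27 ± 0.0473 and 2.17 ± 0.0839, in the same order of groups. The order Aff4, Aff3, Aff2, Aff1 held in all 11 samples, and the ranges of neighbouring genes did not overlap, since the highest Aff1 value was 2.36 and the lowest Aff2 value 2.93 CPM per kb. The order was the same when the longest coding transcript was taken as the length, with 41.9, 16.1, 5.04 and 2.58 CPM per kb in control samples.

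Among 17312 tested genes with a known length, the mean level of Aff4 exceeded that of 91.6% and the mean level of Aff3 that of 80.8%. Aff2 exceeded 48.7% and Aff1 42%, close to the median gene at 3.47 CPM per kb. Aff4 made up 61.2% ± 0.879 of the summed family level in control and 60.3% ± 0.663 in mimic samples. Aff3 made up 28.3% ± 0.804 and 28.6% ± 0.687, Aff2 6.1% ± 0.451 and 6.76% ± 0.141, and Aff1 4.41% ± 0.0989 and 4.33% ± 0.211. The summed family level was 51.4 ± 0.54 CPM per kb in control and 50.2 ± 1.04 in mimic samples. Thus the messages of Aff4 and Aff3 outnumbered those of Aff2 and Aff1 in both groups.

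**Figure D2:**
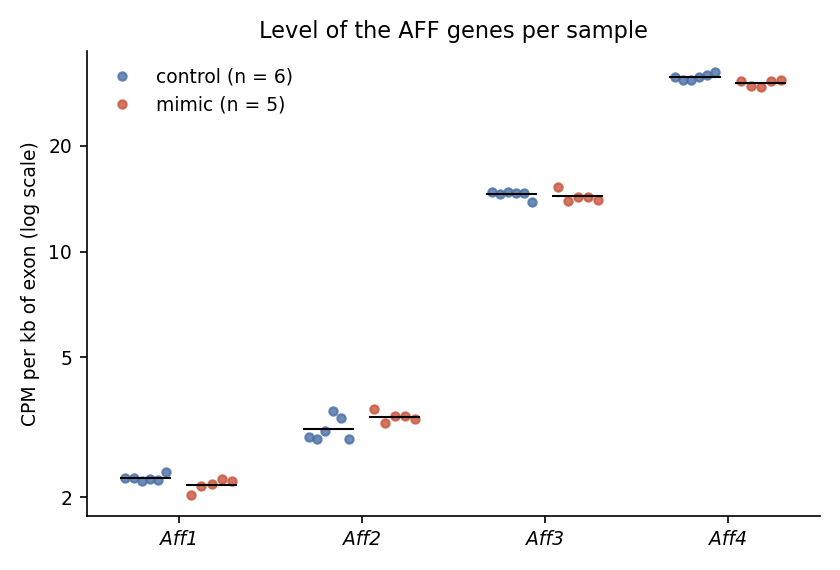
Level of each AFF gene in CPM per kilobase of exon on a log axis, with 1 point per sample (6 control, 5 mimic) and a line at the group mean. Aff4 lies near 30.9 and Aff3 near 14.5 CPM per kb, while Aff2 and Aff1 lie between 2.04 and 3.57 CPM per kb.

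The comparison of mimic with control asked whether the mimic altered the level of any AFF message. With the quasi-likelihood test of edgeR and Benjamini-Hochberg adjustment over all tested genes, 0 of the 4 genes had an adjusted p under 0.05. Over all 17365 tested genes 2.85% were called, that is 1.77% lower and 1.08% higher in mimic samples (307 and 188 genes). At an unadjusted p under 0.05 there were 2 of the 4 genes, Aff4 and Aff2, against 15.7% of all tested genes. DESeq2 and limma on the authors' normalized table also called 0 of the 4, with 2 at an unadjusted p under 0.05 each. With upper-quartile factors in edgeR that number was 1, and with a block on the replicate numbers it was 0. In the edgeR fits without 1 sample it ranged from 0 to 2. The family had a median log2 fold change of -0.039 (3 genes below 0 and 1 above), against -0.00015 for all tested genes.

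Aff4, the main scaffold of the super elongation complex, was slightly lower in mimic samples. Its level was 412, 397, 396, 413 and 414 CPM in mimic replicates 1 to 5, and in the 6 control samples the lowest value was 415, the median 423 and the highest 437 CPM. Every mimic sample lay below every control sample, but the highest mimic and the lowest control value were separated by less than 1 CPM. Non-overlapping groups were found for 2.89% of all tested genes. The log2 fold change was -0.058 (SE 0.023, 95% interval -0.11 to -0.0094, edgeR unadjusted p 0.0208, adjusted p 0.208), which is a ratio of 0.961 with an interval of 0.929 to 0.994. Its 7312 to 20052 counts per sample gave a counting error of 0.706% to 1.17%, smaller than the replicate spread of 1.95% in control and 2.23% in mimic samples. An exact permutation test on log2 CPM, which enumerates the 462 ways to assign the group labels (two-sided, unadjusted), gave 0.00433, the smallest p it can give.

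Aff1, the other known scaffold of the complex and the family member first identified as the MLL fusion partner AF4 in leukaemia, was the predicted miR-181a-5p target of the 4. It had 19.3, 20.3, 20.7, 21.3 and 21.1 CPM in mimic replicates 1 to 5, and its control samples had a lowest value of 21.1, a median of 21.4 and a highest of 22.3 CPM. The groups overlapped, with 4 of 5 mimic samples below the lowest control sample and all 5 below the control median. The log2 fold change was -0.064 (SE 0.042, 95% interval -0.15 to 0.023, edgeR adjusted p 0.526), a ratio of 0.957. With 362 to 1018 counts per sample the counting error of a single sample was 3.13% to 5.26%, larger than the spread of 2.08% over the control samples. A decrease beyond a ratio of 0.901 or an increase beyond 1.02 lies outside the 95% interval. The exact permutation test gave an unadjusted p of 0.0173, against 0.145 (unadjusted) by edgeR, so the tests differed for Aff1.

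Aff3 was the gene with no seed match and the smallest estimate. Its mimic samples had 101.5, 93.0, 95.1, 94.9 and 93.4 CPM, and its control samples had a lowest value of 92.2, a median of 97.5 and a highest of 98.5 CPM. Mimic replicate 1 was above all control samples and control replicate 6 below all mimic samples, so the groups overlapped at both ends. The log2 fold change was -0.021 (SE 0.029, 95% interval -0.08 to 0.039, edgeR adjusted p 0.825), and the ratio interval of 0.946 to 1.03 bounds the difference at this depth. The exact permutation p was 0.472.

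Aff2 was the member with a higher estimate in mimic samples. It had 25.9, 23.6, 24.7, 24.7 and 24.3 CPM in mimic replicates 1 to 5, while the control samples ranged from 21.3 through a median of 22.0 to 25.7 CPM. No mimic sample was below the control median, but control replicates 4 (25.7 CPM) and 5 (24.5 CPM) lay among the mimic samples. Control samples therefore spread by 8.17% of their mean, against 3.44% in mimic samples and a counting error of 3.13% to 4.88%. The log2 fold change was 0.11 (SE 0.05, 95% interval 0.011 to 0.22, edgeR unadjusted p 0.0308, adjusted p 0.255), a ratio of 1.08 with an interval of 1.01 to 1.16. The exact permutation p was 0.0693. Without control replicate 4 the log2 fold change was 0.16, still not called (edgeR adjusted p 0.0728).

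**Figure D3:**
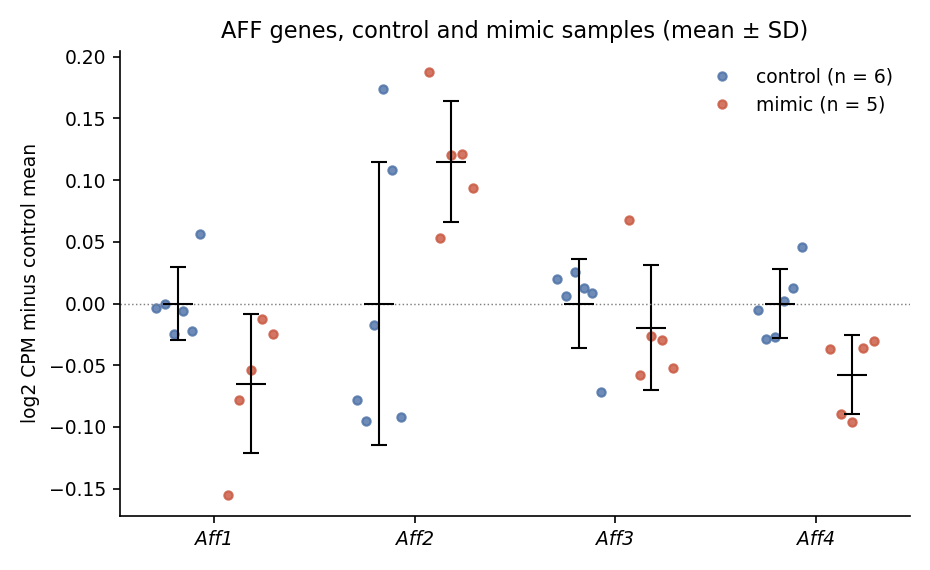
Log2 CPM of each sample minus the control mean of the gene, for the 6 control and 5 mimic samples, with bars for mean ± SD. All 5 mimic points of Aff4 lie below the 6 control points, Aff2 has 2 control points among the mimic points, and the largest distance of any point from its control mean is under 0.2.

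Estimates kept their sign in every alternative run. Over the 11 fits that each left out 1 sample, the log2 fold change ranged from -0.074 to -0.042 for Aff1, from 0.093 to 0.16 for Aff2, from -0.042 to -0.0099 for Aff3 and from -0.063 to -0.043 for Aff4. None of the 4 genes was called by edgeR, DESeq2 or limma in any fit, and the adjusted p nearest to the threshold was the 0.0728 of Aff2 given above.

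**Figure D4:**
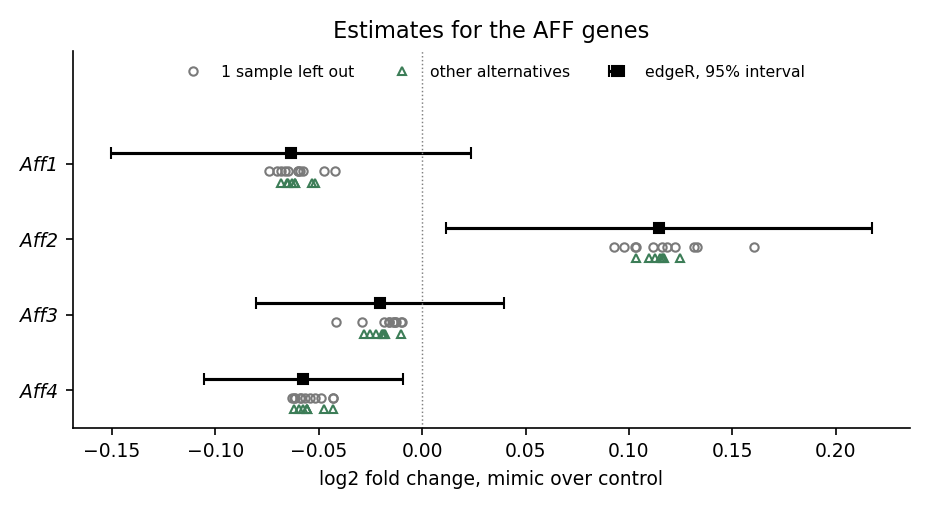
Log2 fold change of each AFF gene, mimic over control, with the 95% interval of the edgeR estimate (square), the 11 estimates with 1 sample left out (circles) and the other alternatives (triangles). The intervals of Aff1 and Aff3 include 0, that of Aff4 ends at -0.0094 and that of Aff2 starts at 0.011, before any adjustment for multiple genes.

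The partners of the AFF proteins were described from lists by role. In the super elongation complex, 9 of 10 partners were tested and 0 were called by edgeR (0 at an unadjusted p under 0.05), with a median log2 fold change of 0.0025. The kinase Cdk9 had 39.5 ± 1.38 CPM in control and 39.7 ± 1.7 in mimic samples. The smallest p of this list belonged to the elongation factor Ell (log2 fold change 0.084, edgeR adjusted p 0.53), the cyclin Ccnt1 (-0.038, 0.673) and the ELL-associated Eaf1 (0.03, 0.832). Ell3 had at most 8 counts in any sample and was not tested. Of the little elongation complex, which serves snRNA genes, 0 of 4 were called by edgeR (0 at an unadjusted p under 0.05, median 0.043), with Coil at 0.062, Ice1 at 0.024 and Zc3h8 at 0.07.

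Of 6 tested genes that hold P-TEFb in the inactive 7SK particle or release it, 1 was called lower, against 1.77% of all tested genes. At an edgeR unadjusted p under 0.05 there was 1 of the 6, against 15.7% of all tested genes. Hexim1, the inhibitor that binds P-TEFb in the 7SK particle, fell from 44.0 ± 1.7 CPM to 40.0 ± 1.59 CPM under the mimic (a log2 change of -0.14, SE 0.037, edgeR adjusted p 0.0306). Its mimic values were 38.1 to 42.3 and its control values 41.6 to 46.4 CPM, so the groups overlapped. The call was lost in 8 of the 11 fits without 1 sample (without control replicates 1, 4, 5 or 6 or mimic replicates 1, 3, 4 or 5), with an edgeR adjusted p of up to 0.12. The other 5 tested members, Jmjd6 (-0.065) among them, were not called, and the median of the 6 was -0.025. Rn7sk, the RNA of the particle, was listed at 0 in all samples of this poly(A) selected RNA.

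Of 19 pausing and elongation factors, 1 was called lower, against 1.77% of all tested genes, and the median log2 fold change was 0.0013. The number with an edgeR unadjusted p under 0.05 was also 1, against 15.7% of all tested genes. Cdc73, a subunit of the PAF1 complex, fell from 45.8 ± 1.98 CPM to 40.9 ± 3.24 CPM (a log2 change of -0.17, SE 0.043, edgeR adjusted p 0.0325). Mimic replicate 5 (45.0 CPM) lay within the control range of 43.9 to 49.4 CPM, and the call was lost in 8 of 11 fits without 1 sample (without control replicates 1, 2, 4, 5 or 6 or mimic replicates 2, 3 or 4, edgeR adjusted p up to 0.144). The other PAF1 complex genes Paf1 (0.029), Ctr9 (0.013), Leo1 (-0.026) and Rtf1 (-0.017) were not called. Supt4a, a subunit of the pausing factor DSIF (0.074), and Ccnk, the cyclin of CDK12 and CDK13 (-0.056), had the next smallest p in the list.

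Of 6 genes listed for the chromatin factors DOT1L and MLL and their partners, 1 was called lower and the median was -0.025. Kmt2a, the histone H3 lysine 4 methyltransferase MLL1, fell from 196 ± 8.68 CPM to 178 ± 4.95 CPM (a log2 change of -0.14, SE 0.03, edgeR adjusted p 0.0106). Its mimic samples lay between 172 and 183 CPM and 5 of 6 control samples between 192 and 205, while control replicate 2 (181 CPM) overlapped them. Kmt2a was called in all 11 fits without 1 sample (edgeR adjusted p 0.00323 to 0.0491). Menin (Men1, -0.04) and the AF17 gene Mllt6 (-0.035) were not called.

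Immediate early genes, which are induced within minutes of neuronal activity, had 2 of 16 called lower, 0 called higher and a median log2 fold change of -0.089. Over all tested genes 1.77% were called lower, and 4 of the 16 had an unadjusted p under 0.05 by edgeR, against 15.7% of all tested genes. Egr3, an activity-induced zinc finger factor, fell from 24.3 ± 1.99 to 20.4 ± 1.37 CPM with no overlap between the groups (log2 fold change -0.25, SE 0.055, edgeR adjusted p 0.0114). Arc, a synaptic plasticity gene, had 12.5 ± 0.916 CPM in control and 10.9 ± 0.578 in mimic samples (-0.21, SE 0.06, edgeR adjusted p 0.0494), and its call was lost under DESeq2 (adjusted p 0.0669) and in 9 of 11 fits without 1 sample, all but those without control replicate 5 or mimic replicate 3 (edgeR adjusted p up to 0.182). Egr1 (-0.11, edgeR adjusted p 0.14) was not called.

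The 2 sets nearest to Aff2 and Aff3 gave no call by edgeR. Of the FMR1 family, Fxr1 had a log2 fold change of 0.068 (edgeR adjusted p 0.272, 1 of 3 at an unadjusted p under 0.05), Fxr2 of 0.012 and Fmr1 of -0.007. At the Dlk1-Dio3 imprinted domain, where Aff3 is known to bind, 0 of 6 genes were called (0 at an unadjusted p under 0.05, median -0.0015). Its abundant noncoding RNA Meg3 had 3020 ± 104 CPM in control and 3058 ± 154 in mimic samples, a difference smaller than the spread between replicates. Dlk1, at 1.04 ± 0.287 and 1.28 ± 0.138 CPM, had the largest estimate (0.33, SE 0.18, edgeR adjusted p 0.383), and Dio3 had one of -0.046 (SE 0.22).

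The 5 called genes of the related lists, all lower in mimic samples, were compared with the AFF genes by the same search of the longest 3′ UTR. The called marker genes, some of them higher, were not part of this comparison. Cdc73, Kmt2a and Egr3 each held the 8-base match TGAATGTA, which the AFF genes lacked and 6% of tested genes held. The 3′ UTRs searched had 9721 bases in Cdc73, 4547 in Kmt2a, 2645 in Egr3, 1733 in Hexim1 and 1668 in Arc, all longer than the median of 1201, and the share was not matched for length. Hexim1 held the match GAATGTA and Arc none of the 4 words. Cdc73, Kmt2a, Egr3 and Hexim1 were on the study's list of predicted miR-181a-5p targets, and Arc was not. Ccnt1, Ccnk, Fmr1 (-0.007) and Egr1 (-0.11) were also on that list and were not called. The share of all tested genes on the list is not given here, so these counts have no reference value. The sites are printed beside those of the AFF genes above to show the longer match, written 5′ to 3′ on the strand of the gene.
Kmt2a 3′ UTR, chr9:44804563-44804570, − strand: aaatcttttaaTGAATGTAtctttctaaag
Cdc73 3′ UTR, chr1:143607880-143607887, − strand: aatacatttaaTGAATGTAcattctctttg
Egr3 3′ UTR, chr14:70081544-70081551, + strand: gcagtcttgacTGAATGTAtccttcctatt
Kmt2a held 2 such matches and Cdc73 and Egr3 1 each. A gene with the 8-base match was not always called, since Ccnt1 (-0.038) and Ccnk (-0.056) also held one. A match in the letters is a description of the annotated transcript, and binding was not measured here.

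**Figure D5:**
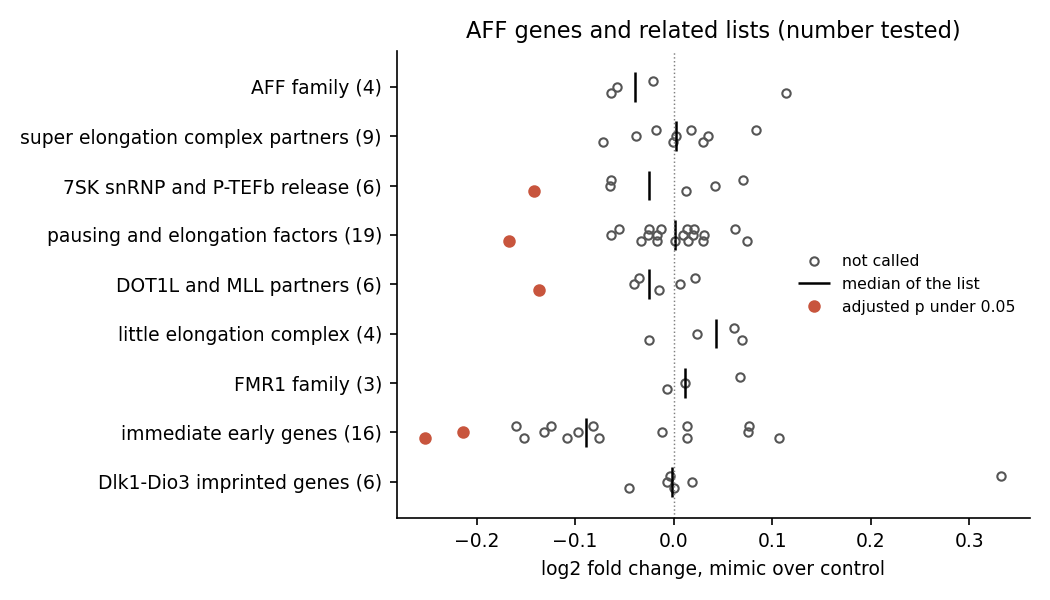
Log2 fold change, mimic over control, of each tested gene of the AFF family and of 8 related lists, with the number of genes tested in brackets and a vertical line at the median of each list. The 5 filled points, Hexim1, Cdc73, Kmt2a, Egr3 and Arc, had an edgeR adjusted p under 0.05 and all lie below 0. The 4 AFF points lie between -0.064 and 0.11.

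The genes whose levels varied most like each AFF gene were listed by Pearson's r of log2 CPM over the 11 samples, among 13928 genes whose mean reached 1 CPM. For Aff4 they were Ralgps2 (0.96), Tmod2 (0.957) and Cbx5 (0.951), and for Aff1 Gpsm2 (0.935), Slc39a14 (0.931) and Heatr1 (0.92). For Aff3 they were B3galt6 (0.945), Fmn2 (0.93) and 4933404O12Rik (0.911), and for Aff2 Gm37403 (0.938), Coro1b (0.93) and Emd (0.867). The values share libraries and are a description. None of these 12 genes was called (edgeR adjusted p 0.0597 to 0.716), and none was another AFF gene.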

How the data were processed

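RNA of primary mouse hippocampal neurons was measured in 6 control and 5 mimic samples, grouped by their labels. Per the submitters' processing notes and the methods, reads of poly(A) selected libraries were mapped to mm10 with STAR (2.5.2b) and counted with featureCounts of Subread (1.5.1), and the authors deposited raw counts per Ensembl gene. The annotation release and counting options are not given in the sources used here. A second deposited table holds normalized signal from the authors (counts divided by 1 size factor per sample, 16921 genes), which was used for an alternative alone. No value column was left unassigned.

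Of 48709 genes, 48349 matched GENCODE M21 on GRCm38. Genes that reached 5 counts in 50% or more of the samples were tested by quasi-likelihood in edgeR 4.0.16 with R 4.3.3 (two-sided, TMM, robust dispersion, Benjamini-Hochberg over all tested genes), and called at an adjusted p under 0.05. The study used DESeq2 (1.42.0 here), which was an alternative, as was limma 3.58.1 on log2(signal + 1). Log2 CPM used a prior count of 2. Standard errors were log2 fold changes over the root of F. Counting errors are 1 over the square root of the count and cover counting alone, since the libraries had no molecular identifiers and PCR copies count as reads. Scripts were tested on simulated data. Named genes were the 4 members, all called genes of each list or its 3 smallest p, and the 3 genes most like each member. Of these, 1 is not reported here. Other genes were named after their values were seen. The members and lists were chosen with earlier results of these data known.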

Additional observations from a re-analysis of the deposited data

Results flagged for a closer look

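In 58 series of values per group (the AFF genes, the named list genes and the family sum), 5 had a sample whose gap to the others was large against the range of its group, where chance gives about 2.9. The series are not independent. For Aff1, control replicate 6 had 22.3 CPM, and the rest of the control group had 21.1 to 21.4 CPM (a gap of 0.696 of the range). The same sample had 92.2 CPM of Aff3 against 97.2 to 98.5 (gap over range 0.798). Mimic replicate 1 had 101.49 CPM of Aff3 against 93.0 to 95.1 in the rest of its group (gap over range 0.747). Of the partner genes, Ice1 was at 239 CPM in mimic replicate 4 against 216 to 221 (gap over range 0.769), and Egr3 at 18.1 CPM in mimic replicate 5 against 20.6 to 21.5 (gap over range 0.742). Without mimic replicate 5 Egr3 kept a log2 fold change of -0.21, and without mimic replicate 1 Aff3 had one of -0.042.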

How the results depend on the processing

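The AFF genes were called in 0 of the 18 refits of each gene, and their signs did not change. The exact permutation test, whose p is unadjusted, passed 0.05 for Aff1 (difference of mean log2 CPM -0.065) and Aff4 (-0.058). The share of all tested genes that pass this test is not given here, so these p-values have no such reference. The count of all called genes (495) became 785 without a count filter and ranged from 218 to 491 without 1 sample (218 without control replicate 1, 237 without mimic replicate 2, 278 without mimic replicate 4). With upper-quartile factors 226 genes were lower and 234 higher, against 307 and 188. The replicate numbers of the labels did not pair the samples (correlations -0.0232 to 0.0158 for the 5 same-numbered pairs). With a replicate block on them, fitted without control replicate 6, the count was 328, and among the lists 0 of the 7SK and P-TEFb genes, 0 of the pausing and elongation factors and 1 immediate early gene. Without 1 sample the first 2 of these lists ranged from 0 to 1 calls and the immediate early genes from 1 to 2. The pausing and elongation factors had 0 calls with the normalized table, and the immediate early genes 1 with it, DESeq2, RLE and upper-quartile factors. Fmr1 changed sign to 0.0033 with upper-quartile factors and ranged from -0.072 to 0.051 without 1 sample, and Dio3 from -0.11 to 0.084. The cause was not tested for any of these. Counts limit the precision for Aff1, whose counting error per sample exceeded the control spread. For Aff2 the control spread of 8.17% exceeded the counting error.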
